A study of Mus musculus with 2 samples.

Results

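Notch signaling in TCRαβ+CD8αα+ intraepithelial lymphocytes (IELs) of the small intestine was examined through 10 genes listed as Hes and Hey family members and other direct Notch targets. These are the Hairy/Enhancer of split family genes *Hes1*, *Hes5*, *Hes6*, *Hey1*, *Hey2* and *Heyl*, and *Nrarp*, *Dtx1*, *Ptcra* and *Myc*. They were taken by gene symbol and are 10 of 20892 named genes on the array, with 10 of 55679 probes. Each gene has 1 probe, and the *Myc* probe is printed at 2 spots.

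The cells came from C57BL/6 mice of 8–12 wk, with both sexes pooled, and RNA of several isolations was combined into 1 pool per genotype. The age is that of the labels, and the text of the study gives a narrower range. In the RFF4 mice (CD4-Cre Rbpjf/f), Cre driven by the *Cd4* promoter deletes loxP-flanked *Rbpj* in T cells from the stage at which thymocytes express CD4. The control is labelled Rbpjf/f, with no Cre named, while the text of the study describes *Rbpj*+/+ mice that carry CD4-Cre, so whether the control cells expressed Cre cannot be told from the sources used here. CD4+ and TCRγδ+ cells were depleted, and the cells were then sorted as TCRβ+CD8α+ and negative for TCRγδ, CD4 and CD8β. Each pool was hybridized to 1 Agilent array of 1 color, 2 arrays in all, from 150 ng of labelled RNA. There were no replicates, so no test, SD between samples or p-value can be given, and every difference below is between 1 pool and 1 pool. The errors given are those the scanner software assigns to a spot, and they leave out variation between mice, isolations and labelling reactions.

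Notch receptors are cleaved when a ligand on a neighboring cell binds them, and the freed intracellular domain enters the nucleus. There it joins the DNA-binding protein *Rbpj* and a Mastermind coactivator and turns on target genes, whereas *Rbpj* without it recruits corepressors. Hes and Hey proteins are basic helix-loop-helix repressors, *Nrarp* is a feedback inhibitor of the Notch complex, *Dtx1* encodes the ubiquitin ligase Deltex1, *Ptcra* encodes the invariant chain of the pre-TCR, and *Myc* drives growth. In T cells, Notch is best known for committing thymic progenitors to the T lineage, where *Dtx1*, *Hes1*, *Ptcra* and *Myc* are used as readouts.

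Promoter sequence of 6 of the 10 genes was taken from RefSeq (GRCm38.p6), as the 250 bases before the annotated start, on the strand of the gene. Entries for *Heyl*, *Hey1*, *Hes1* and *Myc* were not used here. The 4 windows below are shown because they set the gene with a large difference between the arrays (*Dtx1*) beside a target that differed little (*Nrarp*) and beside the windows of this family in which the core *Rbpj* motif was found together with a preceding G (*Hes5* and *Hey2*). Capitals mark the core motif TGGGAA, or its reverse complement TTCCCA. The *Dtx1* window is chr5:120711670-120711919 (minus strand), the *Nrarp* window chr2:25180508-25180757 (plus strand), the *Hes5* window chr4:154960673-154960922 (plus strand) and the *Hey2* window chr10:30842784-30843033 (minus strand).
Dtx1: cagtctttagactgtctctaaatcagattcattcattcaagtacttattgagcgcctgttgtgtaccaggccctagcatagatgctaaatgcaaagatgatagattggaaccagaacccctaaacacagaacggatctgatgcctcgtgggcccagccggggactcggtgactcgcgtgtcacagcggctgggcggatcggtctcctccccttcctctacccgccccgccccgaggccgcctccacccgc
Nrarp: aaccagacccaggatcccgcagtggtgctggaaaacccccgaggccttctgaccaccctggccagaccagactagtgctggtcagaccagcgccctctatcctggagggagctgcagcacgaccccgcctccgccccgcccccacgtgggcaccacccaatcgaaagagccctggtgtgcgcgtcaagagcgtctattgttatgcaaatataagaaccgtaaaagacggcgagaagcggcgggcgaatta
Hes5: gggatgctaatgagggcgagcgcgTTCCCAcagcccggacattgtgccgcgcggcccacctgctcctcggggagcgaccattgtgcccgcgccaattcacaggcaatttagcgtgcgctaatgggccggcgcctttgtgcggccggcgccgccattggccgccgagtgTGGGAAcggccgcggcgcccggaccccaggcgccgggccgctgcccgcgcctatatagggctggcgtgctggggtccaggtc
Hey2: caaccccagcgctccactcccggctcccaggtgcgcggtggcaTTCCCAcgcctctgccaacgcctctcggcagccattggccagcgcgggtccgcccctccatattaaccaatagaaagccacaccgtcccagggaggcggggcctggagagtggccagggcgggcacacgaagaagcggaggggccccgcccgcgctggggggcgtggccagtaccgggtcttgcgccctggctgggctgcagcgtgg
The *Dtx1* and *Nrarp* windows hold no capitals, while *Hes5* holds the motif on both strands and *Hey2* on the reverse strand.

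Before the target genes, the deleted gene itself was read on both arrays. Signals were put on a log2 scale and the 75th percentile of the gene spots on the same array was subtracted, so that a level of 0 is that percentile. *Rbpj* was at 1.96 on the control array and at 2.28 on the array labelled RFF4, a log2 difference of 0.32, and its other probe differed by 0.82. *Rbpj* was thus not lower with this scaling, though it was at −0.78 on a spike-in scale, which makes RNAs added to every labelling (spike-in controls) equal on both arrays, and the sources used here do not place its probes relative to the floxed exons, so that a probe outside them would check nothing. The groups are therefore called by their labels. The percentile itself was a signal of 510 on the control array and 227 on the array labelled RFF4, and dividing by it adds 1.17 to every log2 difference. Of 59305 gene spots, 57.2% and 49.7% were well above background by the scanner software. The arrays share a slide and a scan. Defining T cell genes were bright on both, with 11 of 11 well above background and a median difference of 0.29 (−0.82 on the spike-in scale). Of the genes for proteins absent from the sorted cells, *Cd8b1* was well above background on the control array alone, while *Cd4* was at 1.67 and 1.80 and differed by 0.13, with its other probe at −0.41. In the list of other T cell subsets, which holds both, 1 of 4 genes with a difference was more than 2-fold higher (*Foxp3*, the regulatory T cell factor, at 1.20 from signals of 15.7 and 16.1 before scaling, and at 0.10 on the spike-in scale), 0 were lower, *Sox13* was at 0.78 and *Cd40lg* was not well above background on either array.

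Both arrays measured 7 of the 10 target genes well above background (*Heyl*, *Hey1*, *Hes5*, *Hes6*, *Nrarp*, *Dtx1* and *Myc*). *Hes1* was on the array labelled RFF4 alone, and *Hey2* and *Ptcra* were on neither. A gene well above background on 1 array gives a bound, set against the lowest signal that was well above background on the other, which leaves 8 of the 10 genes with a difference. Among these 8 genes, 2 (25%) were more than 2-fold lower on the array labelled RFF4, *Heyl* and *Dtx1*, where the background over 13515 named genes with a difference is 5.05%. The same 2 genes were more than 4-fold lower, where the background is 0.585%. Since the values of *Heyl* and *Dtx1* were known when the genes were listed, these shares are a description. By its bound, 1 gene (12.5%), *Hes1*, was more than 2-fold higher, beside a background of 12.3%, and 0 were more than 4-fold higher, beside 1.85%. The other 5 genes lay between −0.12 and 0.45 on the log2 scale. The median over the 8 genes was 0.0022 and that over all genes −0.015, with the quartiles of all genes at −0.37 and 0.44. A filter on background passes genes by their level, so the 8 genes are not all of the 10 listed targets. As RNA of whole pools was measured, fewer cells expressing a gene and less of its RNA per cell cannot be told apart.

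**Figure D1:**
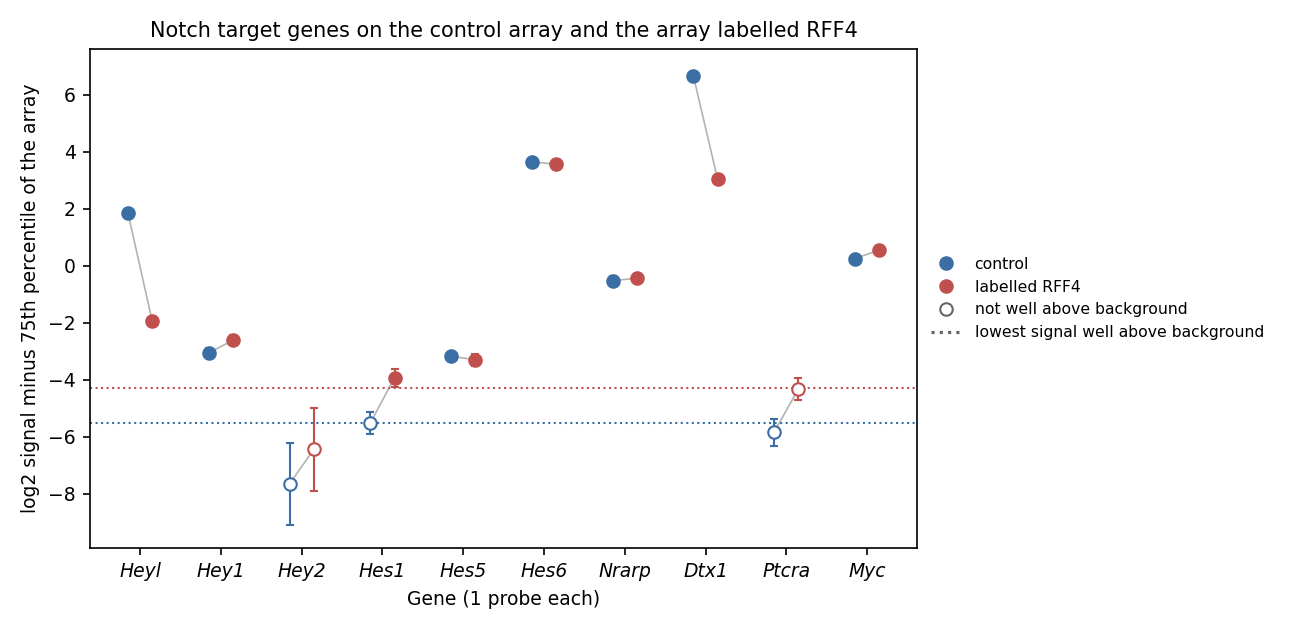
The log2 signal of each Notch target gene, relative to the 75th percentile of its array, is plotted for the control array (blue) and the array labelled RFF4 (red), with bars for the scanner error. Open points are not well above background and dotted lines mark the lowest signal well above background on each array (−5.51 and −4.29). Heyl and Dtx1 are lower on the array labelled RFF4, 5 genes stay within 2-fold and Hey2 and Ptcra are not well above background on either array. Levels of different genes come from different probes and are not comparable.

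*Heyl* encodes a Hey family repressor that has been studied mostly in blood vessels, muscle and the nervous system. Its background-subtracted signal was 1838 on the control array and 58.8 on the array labelled RFF4, a 31.3-fold lower signal before any scaling. On the scaled log2 axis it went from 1.85 to −1.95, a difference of −3.80 ± 0.22 (scanner error, 1 spot on each array), or 13.9-fold. The range that this error alone allows at 95% is −4.22 to −3.37, and other processing moved the value beyond it, to −2.92 with normexp background correction and −4.90 on the spike-in scale. The signal on the array labelled RFF4 is under 100, where repeated spots are less precise. The lower signal was still well above background, so the difference is measured on both sides and is not a bound. Over the 12957 genes that both arrays measured well above background, *Heyl* had the difference with rank 2 from the lowest. Only *Nrcam*, a cell adhesion gene, was lower in that ranking, at −4.82. The nearest genes above it were *Wnt5b* (−3.65), a Wnt ligand, and *Dtx1*.

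*Dtx1* encodes a cytosolic ubiquitin ligase that binds the intracellular part of Notch and is a widely used readout of Notch activity in lymphocytes. Its signal was 51390 on the control array and 1851 on the array labelled RFF4, which is 27.8-fold lower before scaling. The scaled log2 level went from 6.66 to 3.03, a difference of −3.63 ± 0.20 (scanner error, 1 spot on each array), or 12.3-fold, with a range of −4.03 to −3.23 from this error. No gene spot was saturated (0 on each array), so the control value has no ceiling of the scanner in it. The level on the array labelled RFF4 was thus still above the 75th percentile of that array. *Dtx1* had rank 4 from the lowest, with *Wnt5b* and *Heyl* just below it and *Gm4956* (−3.61) and *Gpx8* (−3.54), a glutathione peroxidase of the endoplasmic reticulum, just above it. Their closeness is in the size of the difference over 2 arrays and says nothing of shared control.

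The other genes of the Deltex family did not show a difference of this size. *Dtx3* was at −1.02, *Dtx4* at −0.74, *Dtx2* at −0.22 and *Dtx3l* at 0.16. All 4 are homologs of *Dtx1*, and *Dtx3l* acts with a partner in the DNA damage and interferon responses. Of 10 genes in the list of Notch turnover and the Deltex family, which also holds Numb-type inhibitors and ligases that degrade Notch, 2 were more than 2-fold lower (*Dtx3*, and *Numbl* at −1.06), 0 were higher, and the median was −0.32.

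**Figure D2:**
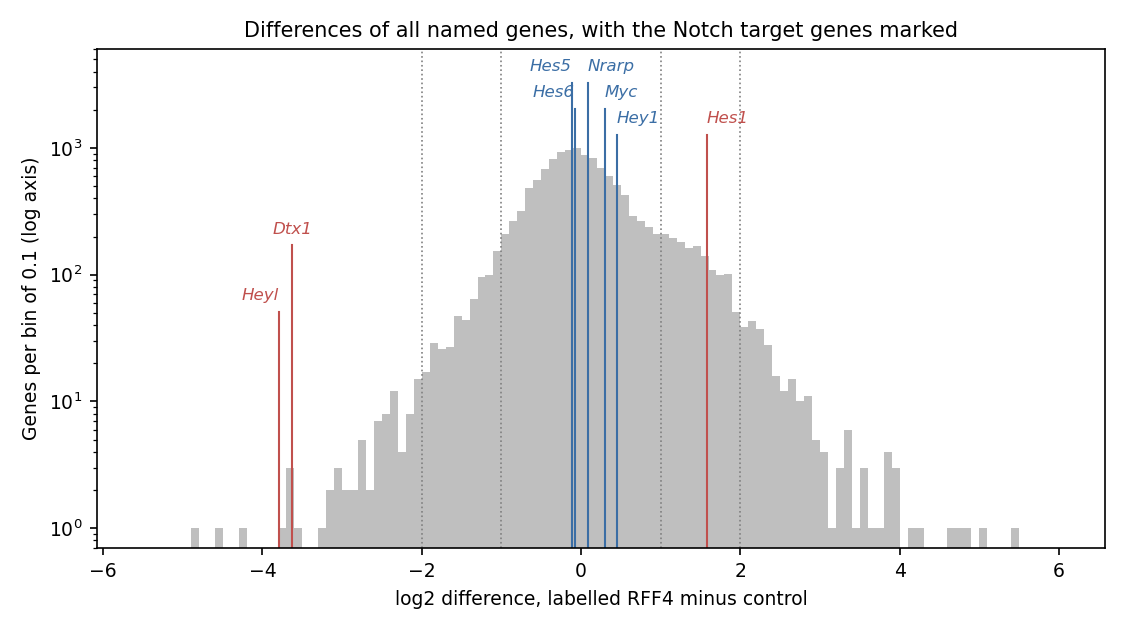
The histogram shows the log2 difference, array labelled RFF4 minus control, of the 13515 named genes with a difference, with the number of genes per bin of 0.1 on a log axis. Vertical lines mark the 8 Notch target genes with a difference (red past 2-fold, blue within it, Hes1 at its bound) and dotted lines mark 2-fold and 4-fold. Heyl and Dtx1 stand in the sparse left tail, at −3.80 and −3.63, and the 5 genes within 2-fold stand in the central peak.

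*Nrarp* and *Hes6* were measured well above background and differed little after scaling. *Nrarp*, which binds the Notch complex and lowers its activity, had a signal of 355 on the control array and 167 on the array labelled RFF4. Its scaled level was −0.52 and −0.44, a log2 difference of 0.084 ± 0.21 with a range of −0.32 to 0.49. Of the ranked genes, 56.0% had a lower difference, so *Nrarp* stood near the middle of all genes. *Hes6*, a family member that is known to oppose *Hes1* rather than act as a typical Notch-induced repressor, had signals of 6363 and 2678. Its level was 3.64 on the control array and 3.56 on the array labelled RFF4, a difference of −0.079 ± 0.20 (range −0.48 to 0.32), and 44.5% of the ranked genes were lower. The range for each of these genes leaves out a difference of 2-fold in either direction, as far as the scanner error goes and with this scaling.

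*Hey1* and *Hes5* were also within 2-fold, at signals near the dim end. *Hey1*, a Hey family repressor of the vessel wall and heart, had signals of 61.1 and 37.0, scaled levels of −3.06 and −2.61, and a difference of 0.45 ± 0.24 (range −0.03 to 0.92). *Hes5*, a Notch readout of neural progenitors, had signals of 56.3 and 23.0, levels of −3.18 and −3.30, and a difference of −0.12 ± 0.26 (range −0.62 to 0.38). For probes with signals under 100, repeated spots give an SD of 0.33 for a log2 difference, against 0.087 for signals of 100 or more, so both genes lie in the less precise part of the scale. The *Hes5* difference was below that SD and the *Hey1* difference above it, and they were 0.46 and 1.83 times their own scanner errors.

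*Myc*, a regulator of cell growth and a target of Notch in T cell leukemia and thymocytes, had a mean signal of 607 on the control array and 331 on the array labelled RFF4. Its 2 spots read 569 and 646 on the control array and 325 and 337 on the other, so the spots of each array did not overlap before scaling. The scaled level was 0.25 and 0.55, a difference of 0.30 ± 0.14 (range 0.014 to 0.58), in the direction opposite to the unscaled signals. Genes that work with *Myc* and genes that it drives were read beside it. Among the *Myc* network, the partners and antagonists of *Myc*, 0 of 8 genes with a difference were past 2-fold, with a median of −0.39. Of 15 target genes of *Myc*, mostly in ribosome production and metabolism, 1 was more than 2-fold lower (*Nop56* at −1.09, with its other probe at −0.58), 0 were higher, and the median was −0.080. *Max*, the obligate partner of *Myc*, was at −0.73.

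*Hes1*, *Hey2* and *Ptcra* were well above background on 1 array or on none. *Hes1*, the Notch-induced repressor that early thymocytes need, had a signal of 11.1 on the control array, not well above background, and of 14.9 on the array labelled RFF4, just above it. After scaling this gives at least 2.99-fold higher (a bound of 1.58 on the log2 scale), while the signals before scaling differ by 1.34-fold and the plain median signal less local background was 14 on the control array and 9 on the other. Of the 156 named genes with such a bound from the array labelled RFF4 alone, 156 were past 2-fold higher by it, so the *Hes1* call is one that every gene in its position received. Before scaling, signals counted as well above background from 11.2 on the control array and from 11.5 on the other, and after it the scaled limits were −5.51 and −4.29. *Hey2*, a family member of the heart and arteries, had signals of 2.52 and 2.60, with median signals of −3 and 3 after local background. *Ptcra* had signals of 8.90 and 11.4. The scanner's weaker test against background was passed by *Ptcra* on both arrays and by *Hey2* on neither, and no difference can be given for these genes.

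**Figure D3:**
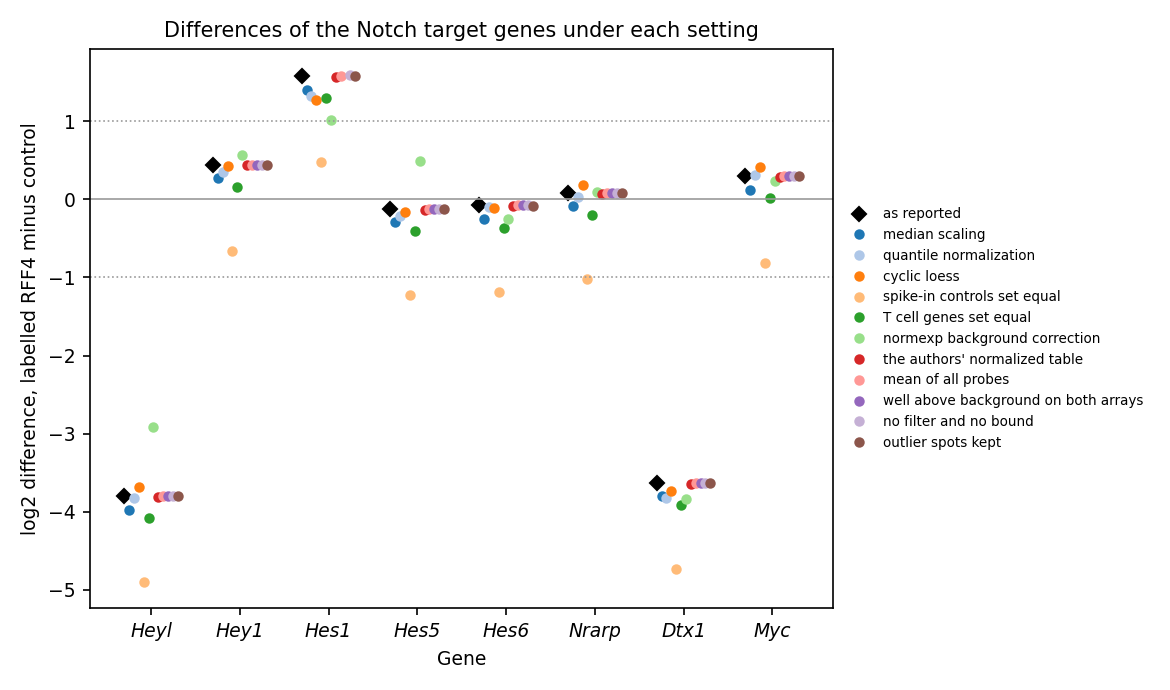
The log2 difference of each of the 8 Notch target genes with a difference is plotted under the reported setting (black diamonds) and each alternative (colored points). Dotted lines mark 2-fold. Every point of Heyl lies between −4.90 and −2.92 and every point of Dtx1 between −4.73 and −3.63, while the points of Hey1, Hes5, Nrarp and Myc lie on both sides of 0.

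The small differences depend on how the arrays are put on a common scale. Over 11 alternatives, *Heyl* ranged from −4.90 to −2.92, the latter with normexp background correction, and *Dtx1* from −4.73 to −3.63, so both were more than 4-fold lower under each of these. *Hes6* ranged from −1.19 to −0.079, *Hes5* from −1.23 to 0.49, *Nrarp* from −1.02 to 0.19, *Hey1* from −0.66 to 0.57 and *Myc* from −0.81 to 0.42. *Hes1* had a value under 10 alternatives, mostly as a bound, from 0.47 on the spike-in scale to 1.60 with no filter and no bound. On the spike-in scale, made equal over 8 such controls, each difference shifted by −1.11 and *Hes5*, *Hes6* and *Nrarp* passed 2-fold lower as well. The target genes more than 2-fold lower were then 5 of 8 (62.5%), a share near that of all genes, 7910 of 14212 (55.7%). When the T cell genes were set equal, a shift of −0.29, *Nrarp* was at −0.20 and *Myc* at 0.011.

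The motif search covered 7 windows, since *Hes6* has 2 annotated starts. Each was searched on both strands for TGGGAA, the core of the *Rbpj* site, for GTGGGAA, which contains it, for the E-box CACGTG and the N-box CACNAG, at which Hes and Hey repressors are known to bind, and for the general E-box CANNTG, of which CACGTG is a special case. Of the 7 windows, 3 (42.9%) hold TGGGAA, beside 21.6% of 32851 windows of the same length over all promoters. In *Hes5* it starts 226 bases before the start of the gene on the reverse strand and 82 before it on the forward strand, both as GTGGGAA, which 0.161% of all promoters hold at least 2 times. *Hey2* has GTGGGAA at 207 bases, which 5.42% of all promoters hold, and *Ptcra* has TGGGAA at 84 and 32 bases. The *Dtx1*, *Nrarp* and both *Hes6* windows hold none. *Nrarp* holds CACGTG at 108 bases, as do 6.02% of all promoters. CACNAG, held by 36.7%, was found at 179 and 79 bases in *Nrarp*, once in *Dtx1* and at 237 bases before the other start of *Hes6*, and CANNTG is held by 66.2%. The gene with the largest difference among these 6, *Dtx1*, thus has no core motif in its window, and the genes with the motif were within 2-fold (*Hes5*) or not well above background (*Hey2* and *Ptcra*). A match is a run of letters in 250 bases and not a bound site, and no binding data were used.

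**Figure D4:**
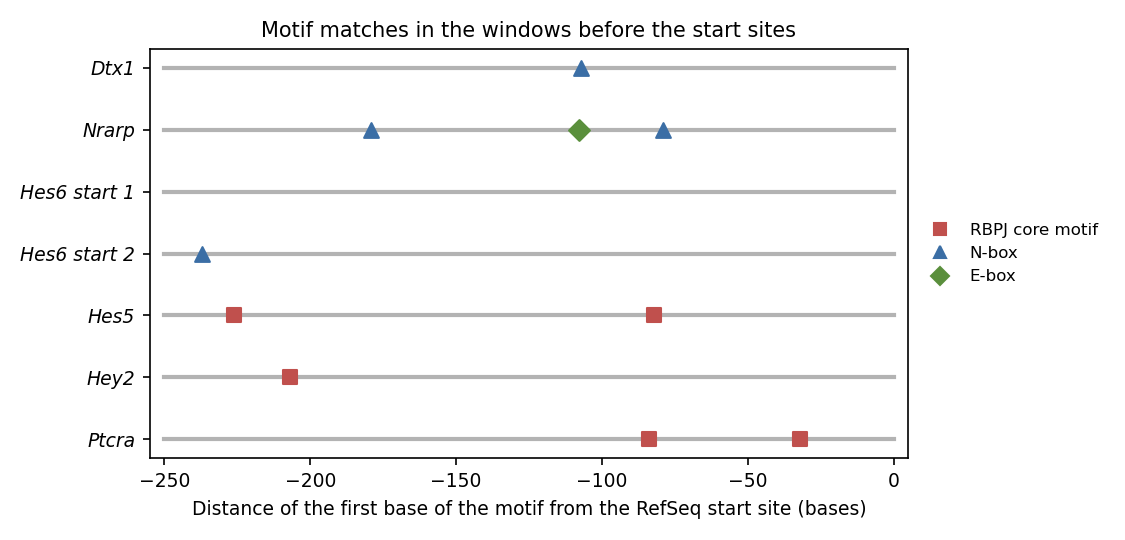
Each line is the 250 bases before an annotated start of a Notch target gene, with the distance from the start in bases on the x axis. Symbols mark the first base of the Rbpj core motif (TGGGAA), the N-box (CACNAG) and the E-box (CACGTG). The core motif is in the Hes5, Hey2 and Ptcra windows and in none of the Dtx1, Nrarp and Hes6 windows.

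Other genes of the pathway were read from 12 lists, with 126 distinct genes. Of 110 genes with a difference, 5 (4.55%) were more than 2-fold lower, 9 (8.18%) were more than 2-fold higher and the median was 0.046, beside 5.05% and 12.3% over all genes. None (0 of 110) was more than 4-fold lower, the range in which *Heyl* and *Dtx1* lie. These counts stand near or below the background and are not a result about the lists. The medians of the lists below are those with the scaling to the 75th percentile, and each was below 0 on the spike-in scale, between −1.55 and −0.58.

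Among the receptors and ligands, 1 of 7 genes with a difference was lower and 2 were higher, with a median of 0.53. *Notch1*, the receptor that drives T cell commitment, was at 0.23 on the control array and at 2.14 on the array labelled RFF4, a difference of 1.91 (0.80 on the spike-in scale), but its other probe differed by 0.22. *Notch2* differed by 0.13. Among ligands, *Jag2* was at least 2.60-fold lower and *Dll3* was at 1.12, from signals of 23.7 and 22.9 before scaling. Genes that cleave and glycosylate Notch had a median of 0.03, with 0 of 13 past 2-fold. Of 9 genes of the *Rbpj* complex and its coactivators, 1 was higher (the Mastermind gene *Maml3* at 1.08), with a median of −0.16. The *Maml3* signals were 19.6 and 18.4 before scaling, and 1 of its 3 probes gave a difference. Of 11 *Rbpj* corepressors, *Spen*, which joins *Rbpj* to histone deacetylases, was lower at −1.19, *Ctbp2* was higher at 1.17, and the median was −0.45. The *Ctbp2* signals were 224 and 225 before scaling, so the higher calls of *Dll3*, *Maml3* and *Ctbp2* rest on the scaling. None of 7 corepressors of Hes and Hey proteins was past 2-fold (0 of 7), with a median of 0.19.

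Both arrays measured 3 of 6 other Hes family genes well above background. *Hes3*, *Helt* and *Bhlhe41* were so on neither, *Hes7* was at 0.53, *Bhlhe40* at 0.01 and *Hes2* at 1.08. The *Hes2* signals were 37.1 and 34.9 before scaling, so its higher call also rests on the scaling. Of 17 further genes that Notch is known to regulate in T cells, 0 were more than 2-fold lower and 3 were higher, with a median of 0.24. These 3 were *Ccnd1*, a G1 cyclin, at 2.03, the IL-7 receptor gene *Il7r* at 1.91 and the cell cycle inhibitor gene *Cdkn1a* at 1.01. Before scaling, the signals were 395 and 716 for *Ccnd1*, 105 and 174 for *Il7r*, and 1440 and 1294 for *Cdkn1a*. The *Cdkn1a* call thus rests on the scaling, and on the spike-in scale 0 pathway genes were more than 2-fold higher. E proteins and their Id inhibitors had a median of 0.0079, with *Id1* at 1.46. Beside *Ptcra*, the recombinase genes *Rag1* and *Rag2* and the thymocyte gene *Arpp21* were also not well above background on either array. In contrast, the thymocyte gene *Dntt* was so on both, with signals of 40.8 and 33.5 before scaling and a difference of 0.88. With it, 0 of 4 other genes of the pre-TCR stage were past 2-fold, and some of the 4 are also in the list of T cell genes.

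**Figure D5:**
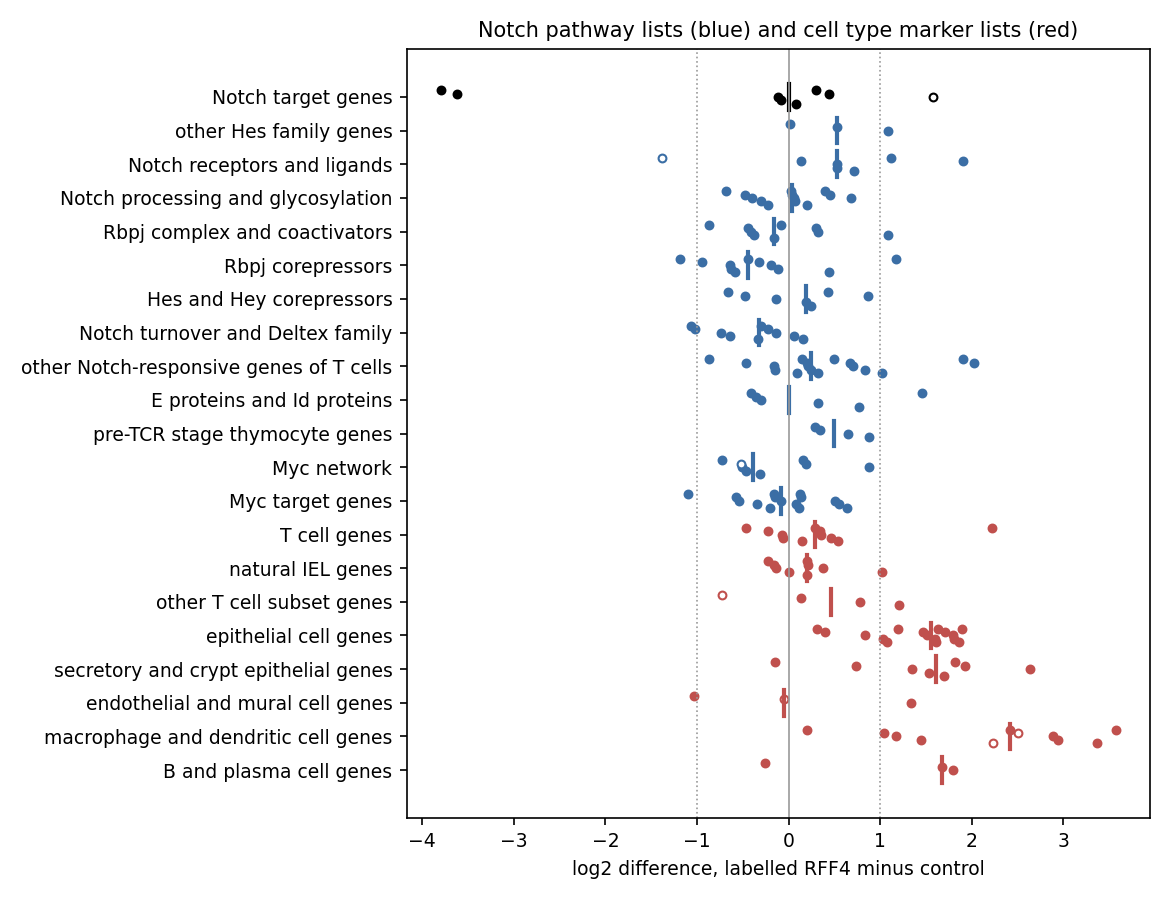
Each point is the log2 difference of a gene, array labelled RFF4 minus control, by list (black for the Notch target genes, blue for pathway lists, red for cell type markers), with open points for bounds and a thick bar at each median. Dotted lines mark 2-fold. Heyl and Dtx1 are the only points of the black and blue lists below −2, and the epithelial, secretory, macrophage and dendritic, and B and plasma cell lists lie to the right, with medians of 1.55, 1.61, 2.42 and 1.68.

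Markers of other cells moved with the groups. Both arrays measured 16 of 16 epithelial genes well above background, 13 of them were higher by over 2-fold with the label RFF4, and the sum of their scaled signals (in units of the 75th percentile) went from 224 to 678. Of 8 secretory and crypt genes with a difference, 6 were more than 2-fold higher, with a sum of 58.8 and 208. The others were *Smoc2* at 0.74 and *Ascl2* at −0.15, and *Lgr5* was not well above background on either array. These 3 are genes of crypt stem cells, so the higher genes of this list were secretory ones. Of 11 macrophage and dendritic cell genes, 10 were more than 2-fold higher (8 of the 9 measured on both arrays, the other 2 by a bound like that of *Hes1*), with a sum of 56.2 and 132, or 10.3 and 79.1 without *Itgax*, the gene that was not. Of 3 B and plasma cell genes with a difference, 2 were higher, the median was 1.68, and *Cd79a* and *Pax5* were not well above background. In contrast, T cell genes summed to 1349 and 1617 and had a median of 0.29, with 1 of 11 (*Cd2* at 2.22) past 2-fold, and 9 natural IEL genes had a median of 0.20, with *Gzma* at 1.02. Under each of the 11 alternatives the medians of the epithelial, secretory, macrophage and dendritic, and B and plasma cell lists were above 0, at 0.45, 0.51, 1.32 and 0.57 on the spike-in scale, where the IEL median was −0.91. These 4 lists were thus higher where *Heyl* and *Dtx1* were lower. *Heyl* is also known from blood vessels, and 7 of 10 endothelial and mural genes (*Cdh5*, *Tek*, *Vwf*, *Tie1*, *Pdgfrb*, *Rgs5* and *Cspg4*) were not well above background on either array, while *Pecam1* was at −1.03 and *Kdr* at 1.33. Epithelial and myeloid cells also express Hes and Hey genes, and the part of these cells in the signals of *Hes1*, *Hey1*, *Hes6*, *Nrarp* and *Myc* was not tested.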

How the data were processed

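The authors' scanner software, Agilent Feature Extraction 10.7.1.1, gave the deposited intensity values, from which the background of each spot had been taken off, with no normalization between arrays. The authors also deposited a table made with GeneSpring, whose settings are not given in the sources used here. Its values are on a log2 scale and centered over both arrays in 55840 of 62976 lines, and its differences equal those used here plus −0.012. It served as an alternative.

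From the intensities, log2 values were taken, and the 75th percentile over gene spots of the same array was subtracted. Control and outlier spots (102 and 131) were left out and spots of 1 probe were averaged. A probe counted as well above background where 50% or more of its spots did. Of 55679 probes, 27521 had a symbol, from the file or from RefSeq accessions (GRCm38.p6), and each gene was read by its brightest probe. A bound under 1-fold was dropped. Differences are RFF4 minus control. The scanner error was carried through both arrays. Repeated spots (10 per probe) had an SD of 0.12 and 0.11, which covers technical error only. Files hold no depth, and the number of arrays limits the precision.

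The target genes and the lists were chosen with earlier results of these data known. The text names all target genes, *Rbpj*, *Notch1* and *Notch2*, list genes past 2-fold (for some lists by number), up to 4 others of a list described in full, and, for target genes past 4-fold, the nearest genes by difference, 2 on each side where there were as many. Markers at background, *Max*, *Cd4*, *Cd8b1*, *Sox13*, *Smoc2*, *Ascl2* and *Dntt* were named after their values were seen. *Skp2*, *Itgae* and *Olfm4* matched no probe name, and some list genes are not reported here. Alternatives were median scaling, quantile normalization, cyclic loess, spike-in controls or T cell genes set equal, normexp (offset 50), the authors' table, the mean of all probes, only genes measured well above background on both, no filter and no bound, and outlier spots kept. A value counted as unchanged within 0.16, the technical SD, and a count within 1.5 times. The steps were tested on simulated data. R 4.3.3 with limma 3.58.1 and Python 3.11.15 with pandas 2.3.3, numpy 2.4.6 and matplotlib 3.10.9 were used.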

Additional observations from a re-analysis of the deposited data

How the results depend on the processing

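No paired analysis was possible because each group has 1 array, and no array could be left out. The 2 genes more than 2-fold lower became 5 of 8 with the spike-in controls set equal, where 55.7% of all genes were lower. The 1 gene more than 2-fold higher became 0 with the spike-in controls set equal, 0 among genes well above background on both arrays, and 3 with no filter and no bound, which counts genes at background. Among pathway genes, 5 were lower and 9 higher as reported. These became 8 and 4 with median scaling, 60 and 0 with equal spike-in controls, and 10 and 4 with the T cell genes set equal. Cyclic loess gave 3 lower, normexp background correction 5 higher, and no filter and no bound 15 higher. The first 3 of these settings add a constant to every gene (−0.17, −1.11 and −0.29), which is their construction, and elsewhere the cause was not tested. Over all genes, the share of lower calls among those past 2-fold was 29.1% as reported, 45.2% with median scaling, 56.3% and 97.4% with equal T cell genes and equal spike-in controls, and 13.5% with no filter and no bound. *Heyl* and *Dtx1* were below 0 under each alternative, while *Nrarp*, at −1.02 on the spike-in scale, and *Hes5*, at −1.23, were above 0 under others (up to 0.19 and 0.49). The *Hes1* bound could not turn, since a bound under 1-fold is dropped. The number of target genes well above background on both arrays was 7, 7 when every spot of a probe had to be, and 9 by the scanner's test against background. The weaker signal on the array labelled RFF4 limits how far a lower gene can be measured, and 1 array per group limits the precision of every value.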
